A study of Mus musculus with 43 samples.

Results

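A set of 10 genes that send or receive a TGFB signal were followed through the series: the ligands Tgfb1, Tgfb2 and Tgfb3, the receptors Tgfbr1, Tgfbr2 and Tgfbr3, and the SMADs Smad1, Smad2, Smad3 and Smad4. They were chosen by symbol and not by a cutoff on their values, with earlier results of these data known. They are 10 of the 23951 genes in the bulk RNA tables and 10 of the 54307 gene rows in the single-cell matrices. Bulk RNA-seq covered primary intestinal organoids of wild-type C57BL/6 mice, which are closed epithelial cultures grown from crypts, in 6 groups of 3 libraries. A first set was never irradiated and was collected on day 7 (D7 non-IR). The others received 4 Gy on day 4 and were collected on day 7 (D7 IR) or day 11 (D11 IR). In each condition the organoids had received vehicle or 2 ng/mL TGFB1 for 24 h from day 6, so the D11 organoids were collected days after the exposure had ended. Single-cell RNA-seq covered organoids given 4 Gy on day 4 and collected on day 8 after vehicle (called 0 h) or after 6, 15 or 24 h of 1 ng/mL TGFB1, with 1 library each. It also covered live Ki67-RFP+ crypt cells from the proximal small intestine of Mki67tm1.1Cle/J mice, in which the reporter marks dividing cells. Of these, 1 library came from a non-irradiated littermate and 2 came from mice killed 56 h after 12 Gy of whole-body irradiation. The non-irradiated crypts were passed through a finer strainer than the irradiated ones. No label says that the bulk libraries of a group came from separate cultures, so their p-values measure only the spread between these libraries, which may be technical.

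TGFB ligands are secreted as latent dimers and are released outside the cell, in part by integrins. Active ligand binds TGFBR2, a kinase that then phosphorylates TGFBR1, and TGFBR1 phosphorylates SMAD2 and SMAD3. These join SMAD4, the SMAD common to all branches, and act on genes in the nucleus. SMAD1 is the receptor SMAD of the related BMP branch, and TGFBR3 (betaglycan) is a co-receptor that presents ligand. In the gut epithelium the pathway is known for restraining crypt proliferation and for its part in wound repair.

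Tgfb1, Tgfbr2 and Smad3 carry most of the results below, and their upstream sequences are shown so that the letters next to the 3 start sites can be read beside the values. Each is the 250 bases before the RefSeq start site (GRCm38.p6), written 5′ to 3′ on the gene's strand. Capitals mark the SMAD box, AGAC or its reverse complement GTCT.
Tgfb1, chr7:25686752-25687001, plus strand: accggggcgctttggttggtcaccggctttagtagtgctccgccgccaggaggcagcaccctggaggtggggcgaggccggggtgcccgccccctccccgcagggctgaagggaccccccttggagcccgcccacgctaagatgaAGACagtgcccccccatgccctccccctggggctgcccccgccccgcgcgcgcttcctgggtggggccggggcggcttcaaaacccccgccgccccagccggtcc
Tgfbr2, chr9:116175364-116175613, minus strand: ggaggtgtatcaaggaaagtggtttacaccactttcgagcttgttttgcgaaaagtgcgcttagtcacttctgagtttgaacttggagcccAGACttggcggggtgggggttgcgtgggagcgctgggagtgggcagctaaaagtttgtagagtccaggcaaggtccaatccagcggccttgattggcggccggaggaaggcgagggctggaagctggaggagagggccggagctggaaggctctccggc
Smad3, chr9:63757995-63758244, minus strand: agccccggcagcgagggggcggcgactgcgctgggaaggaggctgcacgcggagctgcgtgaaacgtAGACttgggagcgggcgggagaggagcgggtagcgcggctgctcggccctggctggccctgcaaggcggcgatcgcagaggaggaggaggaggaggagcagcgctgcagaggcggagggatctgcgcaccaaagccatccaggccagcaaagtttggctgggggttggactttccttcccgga
Each of these windows held 1 SMAD box. That is a frequent word: 82.9% of the 32851 mouse windows of this length held at least 1, with a median of 2. The palindrome GTCTAGAC, which is 2 such boxes side by side, was found in none of the 3, nor was the CAGA box CAGACA (or TGTCTG) or the AP-1 site TGANTCA. Among all windows these 3 words were found in 0.167, 17.1 and 6.75%. The 3 windows were rich in G and C, at 75.2% for Tgfb1, 58.4% for Tgfbr2 and 69.2% for Smad3. A match or its absence is a description of letters in these windows and was not related to binding here.

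Tgfb1, Tgfbr2 and Smad3 rose in the organoids 24 h after TGFB1 was added, with or without irradiation, and Tgfb1 did so most after irradiation. Tgfb1 was the only ligand above 1 FPKM in any bulk library. FPKM scale a gene's fragments to its transcript length and to the size of the library, so levels of different genes can be set side by side. Changes are TGFB1 minus vehicle on the scale log2(FPKM + 1), tested with limma over the whole table after a level filter (mean FPKM of 1 or more). A gene is called where its two-sided p, adjusted by the Benjamini-Hochberg method over all tested genes, is under 0.05. The filter kept 7 of the 10 genes, and Tgfb2, Tgfb3 and Tgfbr3 did not. At D7 without irradiation 5 of the 7 tested genes were called, 4 higher and 1 lower, where 68.2% of all tested genes were called (33.3% higher and 34.9% lower). At D7 after irradiation 3 were called, all higher, against 75.5% of all genes (35.8% higher and 39.7% lower). At D11 5 were called, 4 higher and 1 lower, against 63.9% (32.3% higher and 31.6% lower). The share called among the 7 genes was near that of the whole table or below it in all 3 comparisons, so the counts themselves are no result about these genes. Their median changes were 0.17, 0.14 and 0.18, where the median over all genes was -0.02, -0.03 and 0.01. In bulk libraries fewer cells of a type and less RNA per cell cannot be told apart.

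**Figure D1:**
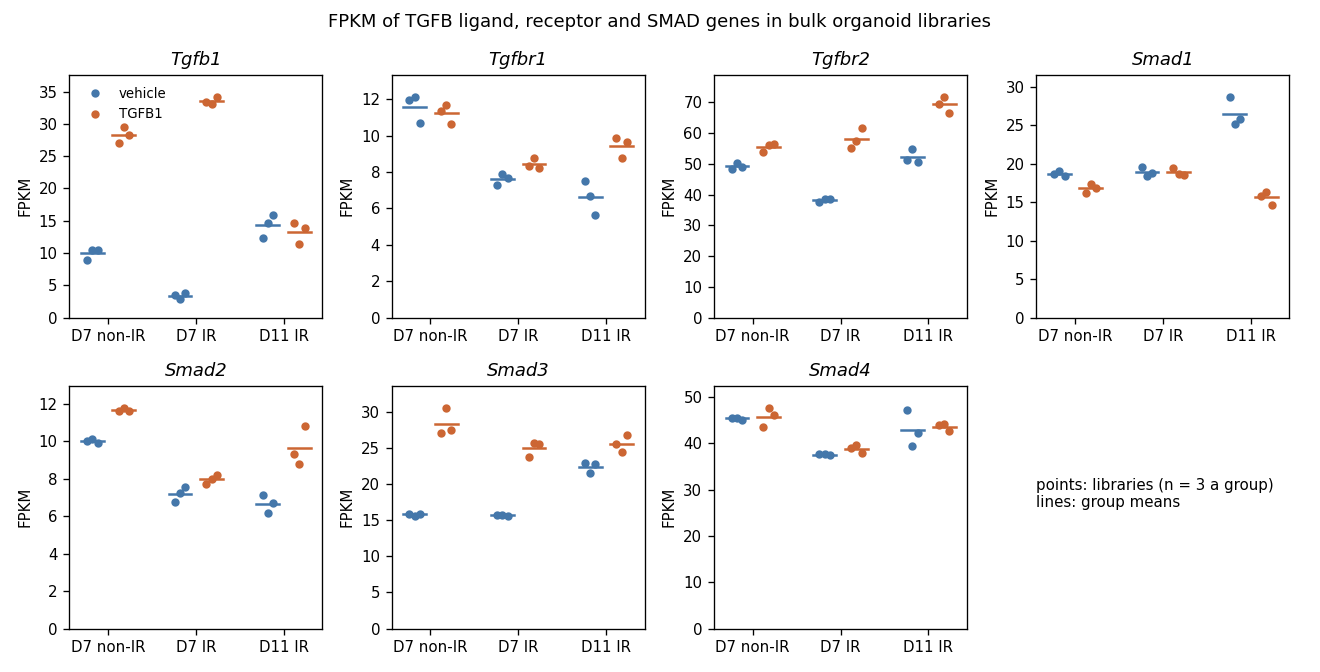
FPKM of the 7 tested genes in the 18 bulk organoid libraries (linear y axis, from 0), by condition, with 1 point per library and a bar at the mean of 3. Tgfb1 with TGFB1 lies above vehicle at D7 in both conditions, at 33.0 to 34.2 FPKM in D7 IR, and overlaps vehicle at D11.

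Among the ligands, Tgfb1 encodes the protein that had been added to the medium. In non-irradiated organoids at D7 it stood at 8.97, 10.4 and 10.4 FPKM in the vehicle libraries and at 27.1, 29.4 and 28.3 FPKM with TGFB1. In irradiated organoids at D7 the vehicle libraries had 3.58, 2.90 and 3.81 FPKM and the TGFB1 libraries 33.4, 33.0 and 34.2 FPKM. In both conditions every treated library lay above every vehicle library, as the groups of 72.1% of all tested genes did not overlap without irradiation and those of 78.2% with it. The change was 1.42 (SE 0.06, limma adjusted p = 6.29e-09, 2.84-fold in mean FPKM) without irradiation and 2.97 (SE 0.07, limma adjusted p = 2.78e-10, 9.78-fold) with it. The treated means were 28.3 ± 1.19 FPKM (SD, n = 3) without and 33.5 ± 0.591 FPKM (SD, n = 3) with irradiation, in tables that may have been normalised separately. At D11 the vehicle libraries had 12.3, 14.7 and 15.9 FPKM and the treated ones 14.6, 11.5 and 13.9 FPKM. These groups overlapped, and the difference of -0.09 was not called (limma adjusted p = 0.486). The effect at D7 was larger after irradiation by 1.55 (limma adjusted p = 2.67e-08), and in irradiated organoids it was smaller at D11 than at D7, by -3.06 (limma adjusted p = 1.67e-09). Both of these tests use the D7 irradiated libraries.

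Tgfb2 and Tgfb3, the other ligands of the family, were near the bottom of the scale. At D7 Tgfb3 did not exceed 0.0836 FPKM, and Tgfb2 did not exceed 0.337 FPKM in any library. At D11, however, Tgfb3 had 0.00932, 0.0383 and 0.0192 FPKM with vehicle and 0.692, 0.522 and 0.683 FPKM in organoids that had received TGFB1. Tgfb2 had 0.0688, 0.0696 and 0.0579 FPKM against 0.337, 0.146 and 0.202 FPKM. For both ligands the treated D11 libraries all lay above the vehicle libraries, as the groups of 70.0% of all tested genes did not overlap in that comparison. The exact permutation test gave p = 0.1 for each, the smallest that 3 against 3 libraries allow (two-sided). In the fit without the level filter, the differences were 0.67 for Tgfb3 (limma adjusted p = 7.99e-05) and 0.20 for Tgfb2 (limma adjusted p = 0.0214).

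Among the receptors, Tgfbr2, which binds the ligand first, was the most abundant member of the set beside Smad4 and was called higher in all 3 conditions. Without irradiation it had 48.3, 50.3 and 49.0 FPKM with vehicle and 53.7, 56.0 and 56.5 FPKM with TGFB1. After irradiation it had 37.6, 38.6 and 38.6 FPKM with vehicle and 55.3, 57.6 and 61.8 FPKM with TGFB1. At D11 it had 51.3, 54.8 and 50.6 FPKM with vehicle and 69.6, 71.8 and 66.6 FPKM after TGFB1. No vehicle library reached a treated one in any condition. The changes were 0.17 (SE 0.04, limma adjusted p = 0.00163) in D7 non-IR, 0.59 (SE 0.05, limma adjusted p = 7.03e-07) in D7 IR and 0.40 (SE 0.07, limma adjusted p = 0.000798) in D11 IR. In mean FPKM these were 1.13-, 1.52- and 1.33-fold. The effect was larger by 0.42 with irradiation at D7 (limma adjusted p = 2.56e-05). The difference between D11 and D7, -0.19, lay at the threshold (limma adjusted p = 0.0490) and lost its call in 10 of 18 alternative fits. Among these were the fits without any 1 of 8 libraries (D11 vehicle 2, D11 TGFB1 1 and 3, the 3 D7 IR vehicle libraries and D7 IR TGFB1 2 and 3), with limma adjusted p from 0.0708 to 0.127.

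Tgfbr1, the receptor kinase that phosphorylates SMAD2 and SMAD3, was called at D11 and not at D7. Without irradiation it had 11.9, 12.1 and 10.7 FPKM with vehicle and 11.4, 11.7 and 10.6 FPKM with TGFB1, an overlap (change -0.04, limma adjusted p = 0.540). In D7 IR it had 7.29, 7.92 and 7.66 FPKM against 8.33, 8.77 and 8.20 FPKM, groups that did not overlap and a change that was not called (0.13, limma adjusted p = 0.0558). In D11 IR it had 7.49, 6.69 and 5.63 FPKM against 9.87, 8.76 and 9.66 FPKM. The change there was 0.46 (SE 0.11, limma adjusted p = 0.00378, 1.43-fold). The effect differed between the days by 0.33 (limma adjusted p = 0.0266), a call lost in 7 of 18 alternative fits. The libraries whose omission ended it were D11 vehicle 3, D11 TGFB1 1 and 3, D7 IR vehicle 2 and D7 IR TGFB1 1 and 3 (limma adjusted p from 0.0508 to 0.0620). Between irradiated and non-irradiated organoids the effect differed by 0.17, which was not called (limma adjusted p = 0.0827) but was without non-IR vehicle 3 (limma adjusted p = 0.0272).

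The co-receptor Tgfbr3 had 0.233, 0.231 and 0.234 FPKM in the D11 vehicle libraries, was listed at 0 in 2 of the D11 libraries that had received TGFB1 and at 0.0189 FPKM in the other. At D7 it did not exceed 0.0739 FPKM. The D11 groups did not overlap (exact permutation p = 0.1, the smallest possible, two-sided), and the fit without the level filter gave -0.29 (limma adjusted p = 0.000116). A value of 0 in an FPKM table says only that the gene is listed at 0.

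**Figure D2:**
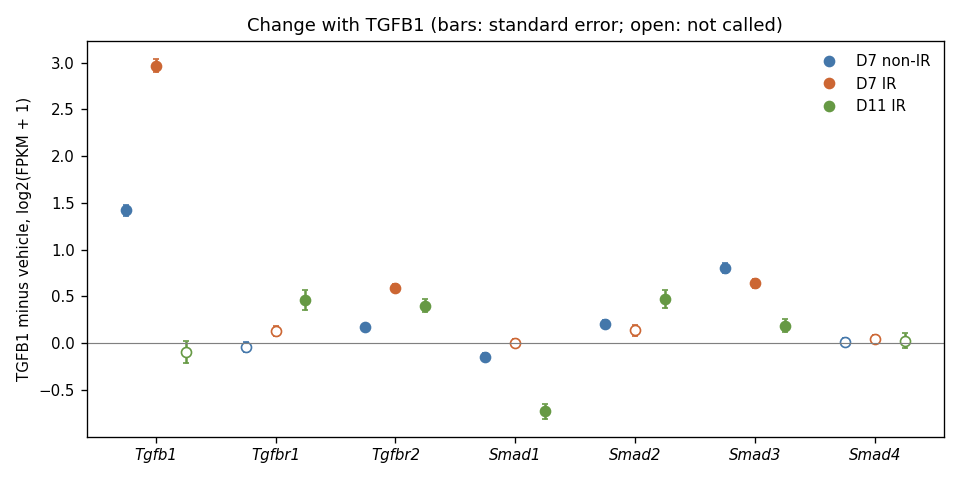
Change with TGFB1 in each of the 3 bulk conditions for the 7 genes tested, as limma differences on the log2(FPKM + 1) scale with their standard errors. Filled points passed an adjusted p of 0.05 and open points did not. Tgfb1 reaches 2.97 in irradiated D7 organoids and -0.09 at D11, and Smad1 reaches -0.73 at D11.

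Of the SMADs, Smad3 was called higher in every condition. It had 15.9, 15.6 and 15.9 FPKM with vehicle and 27.0, 30.5 and 27.5 FPKM with TGFB1 in D7 non-IR. The D7 IR values were 15.7, 15.8 and 15.6 FPKM against 23.7, 25.6 and 25.6 FPKM. The D11 IR values were 22.9, 21.5 and 22.7 FPKM against 25.5, 24.4 and 26.8 FPKM. Vehicle and treated libraries did not overlap in any of these, though at D11 they came close. The changes were 0.80 (SE 0.05, limma adjusted p = 1.21e-07), 0.64 (limma adjusted p = 4.05e-07) and 0.18 (limma adjusted p = 0.0423). The last was lost in 7 of 12 alternative fits, 5 of which left out 1 D11 library, any but vehicle 1 (limma adjusted p from 0.0566 to 0.137). The effect at D11 was smaller than at D7 by -0.45 (limma adjusted p = 0.000163). That between irradiated and non-irradiated organoids was -0.16 and not called (limma adjusted p = 0.0531), but passed the threshold in 5 of 18 alternative fits, 4 of them without D7 IR TGFB1 2 or 3 or non-IR TGFB1 1 or 3 (limma adjusted p from 0.0276 to 0.0498).

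Smad2, the other SMAD phosphorylated by TGFBR1, changed less. It had 10.0, 10.1 and 9.91 FPKM with vehicle and 11.6, 11.8 and 11.6 FPKM with TGFB1 in D7 non-IR (change 0.20, limma adjusted p = 0.00176). In D7 IR the values were 6.75, 7.25 and 7.53 FPKM against 7.69, 8.01 and 8.22 FPKM, groups without overlap whose difference was not called (0.14, limma adjusted p = 0.0585; 0.0491 without vehicle 3). In D11 IR they were 7.14, 6.17 and 6.70 FPKM against 9.33, 8.80 and 10.8 FPKM (change 0.47, SE 0.10, limma adjusted p = 0.00214). Smad2 and Tgfbr1 thus had their largest changes on the same day, D11. The Smad2 effect differed between the days by 0.34 (limma adjusted p = 0.0177) and between irradiated and non-irradiated organoids by -0.07, which was not called (limma adjusted p = 0.434).

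Smad1, which carries the BMP signal, was the only tested gene of the 7 that was called lower. In D7 non-IR it had 18.6, 19.0 and 18.4 FPKM with vehicle and 16.3, 17.4 and 16.8 FPKM with TGFB1 (change -0.14, limma adjusted p = 0.0115). In D7 IR its groups overlapped, with 19.6, 18.4 and 18.8 FPKM against 19.5, 18.7 and 18.6 FPKM (limma adjusted p = 0.992). In D11 IR it had 28.7, 25.1 and 25.8 FPKM against 15.9, 16.4 and 14.6 FPKM, with a wide gap between the groups. It fell there by 0.73 on the log2 scale (SE 0.08, limma adjusted p = 3.54e-05). The day difference was -0.73 (limma adjusted p = 7.30e-06), while the irradiation difference of 0.14 (limma adjusted p = 0.0488) lost its call in 11 of 18 alternative fits. It was kept when D7 IR vehicle 1, D7 IR TGFB1 3 or non-IR TGFB1 2 was left out, and lost without any 1 of the other 9 libraries (limma adjusted p from 0.0594 to 0.110).

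Smad4, the common SMAD, was called in no condition, with changes of 0.01, 0.05 and 0.03 (limma adjusted p = 0.805, 0.289 and 0.796). Its 18 libraries ranged from 37.4 to 47.7 FPKM. Of the 7 tested genes, 3 had a higher effect after irradiation, where 53.1% of all genes differed (25.3% higher and 27.8% lower). Between the days 2 of the 7 had a higher and 4 a lower effect at D11, where 64.5% of all genes differed (31.5% higher and 33.0% lower).

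Partners of these genes in the pathway were called higher more often than lower. Of 78 listed partners, 53 passed the level filter at D7 without irradiation, 52 at D7 after it and 55 at D11. In that order, 32, 33 and 33 were called higher, where 33.3, 35.8 and 32.3% of all tested genes were, and 12, 10 and 12 lower, where 34.9, 39.7 and 31.6% of all genes were. The same shares stand beside each group that follows, and no test of the lists was made. Genes that process or activate latent ligand rose in nearly all cases, 8 of 9, 8 of 9 and 8 of 10, with 1, 1 and 2 lower. They included the integrin subunits Itgb6, which releases latent TGFB (2.92 in D7 IR), and Itgav, its partner chain (2.09 in D7 non-IR), and Thbs1, a secreted activator (4.27 in D11 IR). The signed irradiation difference was higher for 6 of the 9 and lower for none (25.3% of all genes higher, 27.8% lower), and the signed day difference was lower for 8 of the 9 (33.0% of all genes). Pcsk5, a convertase that cleaves ligand precursors, is counted in both with the opposite meaning, since TGFB1 lowered it: its changes were -1.04, -0.27 and -1.01. Feedback inhibitors and direct targets were called higher in 7 of 8, 7 of 8 and 6 of 8 cases, and 1 was lower each time. Among them Pmepa1, which sequesters receptor SMADs, changed by 4.46 in D7 IR, and Skil, a SMAD repressor, by 2.46 there. Tgfbi, a secreted matrix protein, changed by -2.44 in D11 IR. Smad7, the inhibitory SMAD that targets TGFBR1, changed by 2.26 in D7 non-IR. The other receptors of the superfamily were mixed: of 6 tested, 2, 2 and 2 were higher and 2, 1 and 2 lower. Acvr1 and Bmpr2, receptors of the BMP branch, changed by 1.48 and 1.06 in D7 IR, and Acvr2b and Acvr1b by -0.93 and -0.49 in D11 IR. Related ligands were mixed too: of 5, 4 and 5 tested, 3, 2 and 2 were higher and 2, 2 and 2 lower. Bmp7, Bmp2 and Bmp4 changed by -1.87, -1.40 and 1.60 in D11 IR, and Bmp8b by 1.38 in D7 non-IR. Partners and regulators of SMADs, a mixed list of transcription factors, repressors, coactivators, anchors and enzymes that modify SMADs, were higher in 6 of 14, 8 of 14 and 8 of 15 and lower in 3 each time. The largest change was that of Runx1, a transcription factor (2.46 in D7 IR). Of 8 genes of the non-SMAD branch, which are kinases, their adaptors, the ubiquitin ligase Traf6 and the GTPase Rhoa, 3, 3 and 5 were higher and 3, 2 and 2 lower, with the kinase Map2k6 at -1.47 in D7 IR.

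The starting levels differed between the conditions too, as far as the 3 tables can be set side by side, since they may have been normalised separately and carry no test across them. The vehicle means of Tgfb1 were 9.95 FPKM in D7 non-IR, 3.43 FPKM in D7 IR and 14.3 FPKM in D11 IR. In the same order Tgfbr1 had 11.6, 7.62 and 6.61 FPKM, Tgfbr2 49.2, 38.3 and 52.3 FPKM, Smad2 10.0, 7.17 and 6.67 FPKM and Smad4 45.4, 37.6 and 42.9 FPKM. Smad1 had 18.7, 18.9 and 26.6 FPKM and Smad3 15.8, 15.7 and 22.4 FPKM. In irradiated vehicle organoids Tgfb1, Tgfbr1, Tgfbr2, Smad2 and Smad4 lay below every non-irradiated vehicle library, and Smad1 and Smad3 overlapped. The groups of 85.0% of all genes did not overlap in that pair. Between D11 and D7 irradiated vehicle organoids, Tgfb1, Tgfbr2, Smad1, Smad3 and Smad4 lay higher at D11 without overlap, against 66.9% of all genes without overlap, and Tgfbr1 and Smad2 overlapped. With TGFB1 at D7, irradiated organoids lay above non-irradiated ones for Tgfb1 and Smad1 and below for Tgfbr1, Smad2, Smad3 and Smad4, against 84.1% of all genes without overlap. Tgfbr2, which was lower after irradiation with vehicle, overlapped there (55.4 and 58.2 FPKM). With TGFB1 at D11 against D7, Tgfb1 and Smad1 lay lower and Tgfbr2, Smad2 and Smad4 higher, against 77.4% of all genes without overlap. In order of level, the vehicle D7 non-IR means ran from Tgfbr2 and Smad4 through Smad1, Smad3 and Tgfbr1 to Smad2 and Tgfb1, and the last 2 overlapped.

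The genes whose levels followed each member most closely were sought among 10823 genes by Pearson's r over the 18 libraries, after centring within each table. The libraries share treatment, so r mostly ranks genes by how similarly they answered TGFB1, and it carries no p. Closest to Tgfb1 were Calcoco1, Ddah2 and Irf2bpl (each 0.993). For Tgfbr2 they were Atf3 (0.989), Msl1 (0.975) and Bcl3 (0.975), and for Smad3 Trim29 (0.989), Flrt3 (0.987) and Prnp (0.987). Smad1 followed Gaa (0.984), Vwa8 (0.983) and Trim14 (0.983). Smad4 had no close companion, with Foxo3 the nearest at 0.805. Within the set, Smad3 and Tgfb1 had r = 0.867, and Smad1 and Smad2 had r = -0.87.

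The bulk libraries were mainly epithelial by their markers. Epcam ranged from 532 to 2148 FPKM, while Ptprc, the leukocyte antigen CD45, did not exceed 0.0726 FPKM and Col1a1, a fibroblast collagen, did not exceed 0.576 FPKM. Dcn was listed at 0 in 17 libraries and Cd3e in 12. Vim, of the same mesenchymal list as Col1a1 and Dcn, was present throughout, from 1.23 to 6.57 FPKM with a median of 4.68 FPKM. The summed level of 8 immune markers moved with TGFB1, from 24.6 to 28.2 FPKM with vehicle to 80.2 to 90.2 FPKM in D7 non-IR, 0.807 to 1.04 FPKM against 2.96 to 4.02 FPKM in D7 IR, and 0.216 to 0.490 FPKM against 0.678 to 1.82 FPKM in D11 IR. In D7 non-IR nearly all of it was Cd74, the chain that accompanies MHC class II, at 24.3 to 27.9 FPKM with vehicle and 79.9 to 89.4 FPKM with TGFB1. Markers of the regenerative epithelial state summed to 502 to 543 FPKM and 3391 to 3595 FPKM in D7 non-IR, 436 to 479 and 4950 to 5362 FPKM in D7 IR, and 269 to 364 and 4926 to 5779 FPKM in D11 IR. In D7 IR other lists moved too: proliferation markers summed to 353 to 368 FPKM with vehicle and 135 to 153 FPKM with TGFB1, stem markers to 955 to 989 and 386 to 470 FPKM, enteroendocrine markers to 568 to 625 and 1643 to 1825 FPKM, and enterocyte markers to 12390 to 13180 and 18521 to 19389 FPKM. Paneth markers summed to 4684 to 5385 and 8297 to 8430 FPKM there. Goblet markers fell, from 2575 to 2621 FPKM to 2205 to 2395 FPKM. In D7 non-IR enterocyte markers went the other way than in D7 IR, from 3253 to 3398 FPKM to 1814 to 1959 FPKM. In D11 IR enteroendocrine markers went from 942 to 1123 FPKM to 377 to 473 FPKM. Enterocyte markers fell from 3257 to 5801 FPKM to 1955 to 2302 FPKM, and Paneth markers rose from 3108 to 3861 FPKM to 4550 to 5852 FPKM. The part of these lists in the changes of the 10 genes was not tested. FPKM sums ran from 447728 to 621996 per library, and the read depth is unknown.

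Single cells showed which cells carried these transcripts. The doses and days differ from the bulk experiment (1 ng/mL and day 8 against 2 ng/mL and day 7), so the results stand side by side without a comparison. The kept cells numbered 2932, 4283, 2890 and 2218 at 0, 6, 15 and 24 h, with median depths of 8202, 6709, 7805 and 10441 UMIs (unique molecules). The non-irradiated Ki67-RFP library held 1846 cells and the irradiated ones 719 and 699, with medians of 11969, 14399 and 13500 UMIs. Between libraries, 1 cell barcode was shared by 15 h and 24 h and 1 by 24 h and the second irradiated library. With 1 library per time point and 1 for the non-irradiated crypt cells there is no test. All 7 proliferation markers were detected in the crypt libraries with sums of 1048 CPM in the non-irradiated and 1209 and 1067 CPM in the irradiated ones. Values are CPM, a gene's UMIs scaled to an equal total per library, and every interval covers counting error only (95%, exact Poisson, or conditional exact for a ratio). CPM are not divided by transcript length.

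**Figure D3:**
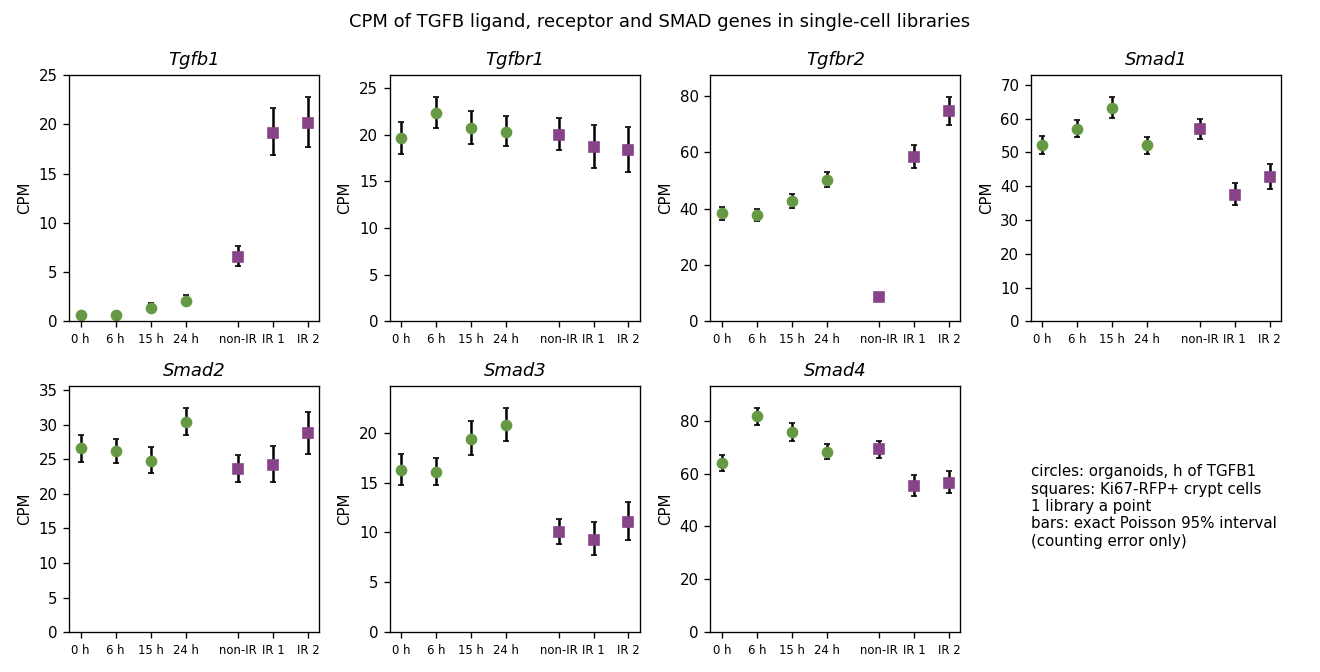
CPM of 7 genes in the 7 single-cell libraries (linear y axis, from 0), with 1 point per library and an exact Poisson 95% interval. Circles are irradiated organoids by hours of TGFB1 and squares Ki67-RFP+ crypt cells. Tgfbr2 is at 8.54 CPM in the non-irradiated crypt cells and at 58.4 and 74.5 CPM after irradiation, while Tgfbr1 lies between 18.3 and 22.3 CPM throughout.

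In the crypt cells, Tgfbr2 and Tgfb1 were higher in both libraries taken after irradiation. Tgfbr2 stood at 8.54 CPM in the non-irradiated library and at 58.4 and 74.5 CPM in the irradiated ones, 6.84 times (interval 5.88 to 7.98) and 8.73 times (7.53 to 10.2) as high. Of the Tgfbr2 UMIs, the counting had shared 8.17% with other genes in the non-irradiated library and 20.3 and 24.3% in the irradiated ones. Tgfb1 stood at 6.58 CPM against 19.2 and 20.1 CPM, ratios of 2.91 (2.38 to 3.54) and 3.05 (2.50 to 3.72). These came to 1.44 and 1.42 without the cluster that had the RNA 7SK among its leading genes, described below. Pecam1 moved the same way, from 6.18 to 10.7 and 11.6 CPM, while the other endothelial markers were at or near 0 (the 4 together summed to 6.30, 10.7 and 11.8 CPM). The counting had shared 51.0, 68.7 and 75.6% of its UMIs with other genes, and its part in the Tgfb1 values was not tested. Tgfbr1 was at 20.01 against 18.7 and 18.3 CPM, and the ratios of 0.932 and 0.917 had intervals that held 1. The 2 irradiated libraries themselves differed by 1.28 times (1.16 to 1.40) for Tgfbr2, and the spread of the non-irradiated arm, which is 1 library, is unknown. Smad1 was lower in the irradiated libraries (56.8 against 37.5 and 42.6 CPM) and so was Smad4 (69.2 against 55.3 and 56.6 CPM). Smad2 had 23.6 against 24.2 and 28.7 CPM and Smad3 10.0 against 9.25 and 11.0 CPM. The inhibitory Smad7 went from 27.6 to 17.3 and 17.8 CPM, and Clu, a marker of revival stem cells, from 0.272 to 49.8 and 74.4 CPM. Irradiation and library cannot be told apart for the non-irradiated arm, which is 1 library with its own strainer.

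In the organoids Tgfbr2 read 38.3, 37.7, 42.7 and 50.2 CPM at 0, 6, 15 and 24 h, a ratio of 1.31 (1.21 to 1.42) between 24 h and 0 h. Smad3 read 16.3, 16.1, 19.4 and 20.8 CPM, a ratio of 1.28 (1.13 to 1.45). At 6 h the ratios to 0 h were 0.984 (0.905 to 1.07) for Tgfbr2 and 0.987 (0.868 to 1.12) for Smad3. Smad7 read 14.7, 30.2, 37.6 and 40.5 CPM, a ratio of 2.06 (1.83 to 2.32) at 6 h. Tgfb1 was scarce, at 0.64, 0.65, 1.32 and 2.08 CPM, with a ratio of 3.25 (1.95 to 6.12) at 24 h. Tgfbr1 read 19.6, 22.3, 20.7 and 20.3 CPM, with a ratio of 1.04 (0.923 to 1.17). Smad1 (52.0, 57.0, 63.2 and 52.0 CPM) and Smad4 (63.9, 81.7, 75.7 and 68.3 CPM) were highest at 15 and 6 h, and Smad2 read 26.6, 26.1, 24.8 and 30.4 CPM. Clu went from 13.3 CPM at 0 h to 773 CPM at 24 h. Tgfb2, Tgfb3 and Tgfbr3 did not exceed 0.73 CPM in any of the 7 libraries. An unnamed organoid cluster whose 10 leading genes were all noncoding RNAs or pseudogenes, 7SK among them, grew with time. It held 27, 15, 55 and 378 cells at 0, 6, 15 and 24 h, and another of this kind 28, 30, 68 and 85. Of the Tgfbr2 UMIs, 4.73% were fractional at 0 h and 11.7% at 24 h. Their part in the changes of Tgfb1 and Tgfbr2 was not tested.

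Counted by cell, after thinning every cell to 2000 UMIs, Tgfbr2 was seen in 6.41, 6.54, 6.89 and 7.94% of organoid cells at 0, 6, 15 and 24 h, in 1.41% of non-irradiated crypt cells and in 8.90 and 11.9% of the irradiated ones. Thinned to 1000 UMIs, the crypt shares were 1.14, 4.17 and 5.87%, so the ratios to the non-irradiated library went from 6.32 and 8.43 to 3.67 and 5.16. Tgfbr1 was seen in 4.20, 3.76, 4.15 and 4.33% and in 4.12, 3.20 and 4.58%. A UMI of both receptors was seen in at most 0.45% of cells. Since each receptor was itself seen in few cells at this depth, that share cannot tell how often cells carry both. Without thinning, Tgfbr2 was seen in 50.1 and 49.8% of the irradiated crypt cells. For scale, 2 genes that epithelial cells should lack were counted in the same way. Ptprc was seen in at most 0.07% of organoid cells and in 0.16, 0.70 and 0.29% of the crypt cells. Pecam1, an endothelial adhesion protein, was seen in at most 0.07% of organoid cells up to 15 h, in 0.77% at 24 h and in 1.19, 2.92 and 3.15% of crypt cells. Tgfb1 was seen in 0.27, 0.09, 0.35 and 0.54% of organoid cells, above the Pecam1 share up to 15 h and below it at 24 h. At 24 h the counting had shared 8.79% of the Tgfb1 UMIs and 57.6% of the Pecam1 UMIs with other genes. Whether the Tgfb1 share is background was not tested. In crypt cells it was seen in 1.57% without and 5.56 and 5.87% after irradiation, against the 1.19, 2.92 and 3.15% of Pecam1, and the 95% intervals of the 2 genes overlapped in each of these libraries. Cells with a UMI of both Tgfb1 and Tgfbr2 made up at most 0.72%, a share limited by the depth in the same way.

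**Figure D4:**
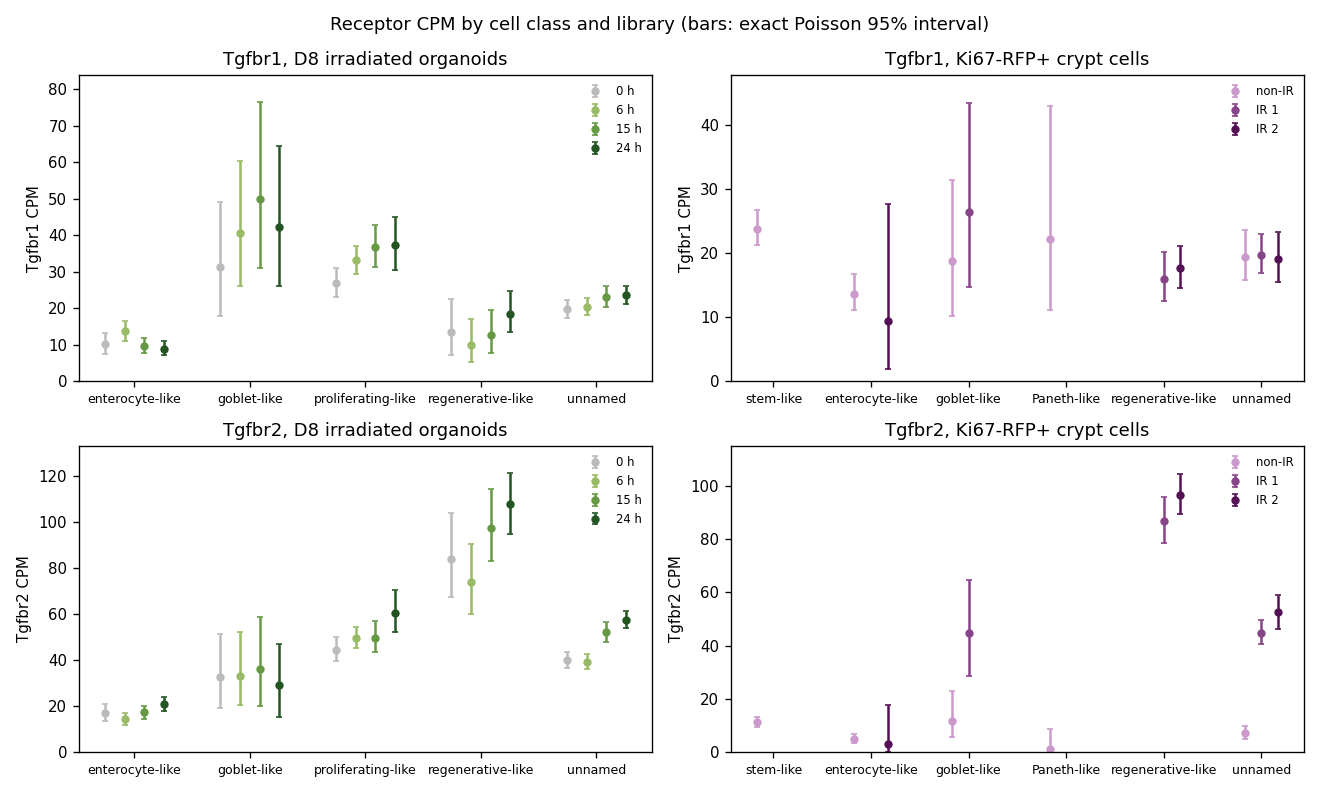
CPM of Tgfbr1 and Tgfbr2 by cell class in the single-cell libraries (linear y axis, from 0), with exact Poisson 95% intervals. In organoids Tgfbr2 is lowest in enterocyte-like cells (14.3 to 20.8 CPM) and highest in regenerative-like cells (73.9 to 107.8 CPM).

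Within the organoids the receptors were spread unevenly. Clusters were named from marker lists, and Tgfbr2 read 16.9, 14.3, 17.3 and 20.8 CPM at 0, 6, 15 and 24 h in enterocyte-like cells, the absorptive lineage. Goblet-like cells had 32.8, 33.1, 36.0 and 29.1 CPM and proliferating-like cells 44.6, 49.6, 49.7 and 60.7 CPM. Regenerative-like cells had 84.0, 73.9, 97.7 and 107.8 CPM. In the organoids this class is 1 cluster led by Ada, Tm4sf4 and Sprr1a, in which all 8 regenerative markers were detected. The cluster with Clu among its leading genes, after Thbs1 and Cym, stayed unnamed and outside the class. It held 43, 149, 512 and 563 cells and had 60.1, 55.3, 63.0 and 71.1 CPM of Tgfbr2. Regenerative-like cells thus held 4.97 times (3.67 to 6.77) the enterocyte-like level at 0 h and 5.18, 5.64 and 5.18 times at 6, 15 and 24 h. These ratios depend on the clustering: at resolution 1.0 they were 5.19, 7.92 and 8.57 at 6, 15 and 24 h, and no value was obtained at 0 h. They made up 3.58, 3.55, 4.91 and 6.45% of the cells, and cells of unnamed clusters 54.0, 46.6, 45.0 and 55.9%. Different clusters made up the enterocyte-like class over time, cluster 0 mainly at 0, 6 and 15 h and cluster 5 mainly at 15 and 24 h. The goblet-like cluster also had the enteroendocrine genes Chga, Chgb and Cck among its leading genes.

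Tgfbr1 had another distribution. It was highest in goblet-like cells (31.2 to 50.01 CPM) and proliferating-like cells (26.8 to 37.3 CPM) and was lowest in enterocyte-like cells at 0, 15 and 24 h (8.96 to 10.1 CPM). The regenerative-like to enterocyte-like ratio was 1.32 (0.683 to 2.44) at 0 h and 0.726 (0.374 to 1.30) at 6 h. It was 1.31 (0.759 to 2.14) at 15 h and 2.06 (1.39 to 2.98) at 24 h, the only time whose interval left out 1. Smad2 and Smad3 in regenerative-like cells stood at 23.9 CPM (15.5 to 35.3) and 14.4 CPM (8.04 to 23.7) at 0 h. By 24 h they stood at 52.8 CPM (44.1 to 62.7) and 31.1 CPM (24.5 to 38.9), whereas enterocyte-like cells had 24.9 CPM (21.8 to 28.3) of Smad2 and 14.4 CPM (12.1 to 17.1) of Smad3. The classes were cut from the same cells and genes, so these values describe them and are no test.

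Split by a single marker instead, cells with a Clu UMI had Tgfbr2 in 12.3% of 57 cells at 0 h and in 10.0, 10.7 and 11.0% of cells at 6, 15 and 24 h. Cells without one had 6.30, 6.20, 5.51 and 5.76%. At 0 h the intervals overlapped, at 5.08 to 23.7% with Clu and 5.44 to 7.25% without it (exact binomial). For Tgfbr1 the shares were 3.51 against 4.21% at 0 h and 7.39 against 3.41%, 6.14 against 3.44% and 6.33 against 2.92% at 6, 15 and 24 h. In the irradiated crypt cells Tgfbr2 had 10.2 against 8.79% and 14.7 against 11.6%, with overlapping intervals. Tgfbr1 had 0 of 59 cells with Clu, which allows up to 6.06% (exact binomial), against 3.48%, and 4.41 against 4.60%.

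Tgfbr2 in the crypt cells stood at 11.1 CPM in stem-like cells, 4.96 CPM in enterocyte-like cells and 1.17 CPM in Paneth-like cells of the non-irradiated library. Regenerative-like cells of the irradiated libraries had 86.8 and 96.5 CPM. Unnamed clusters had 44.8 and 52.4 CPM in the irradiated libraries and 7.17 CPM in the non-irradiated one. These were almost wholly different clusters and no single class. The largest unnamed cluster of the non-irradiated library, with 344 cells, held no irradiated cell. Those with 225 and 169 and with 182 and 117 irradiated cells held no non-irradiated cell. Goblet-like cells had 11.8 CPM against 44.7 CPM in 31 cells of the first irradiated library. Enterocyte-like cells of the second irradiated library, 34 in number and almost all from another cluster than the non-irradiated ones, had 3.15 CPM (0.0798 to 17.6), which is 1 UMI. Stem-like cells came only from the non-irradiated library and regenerative-like cells (35.7 and 50.5% of cells) only from the irradiated ones, so each may be a library as much as a type.

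**Figure D5:**
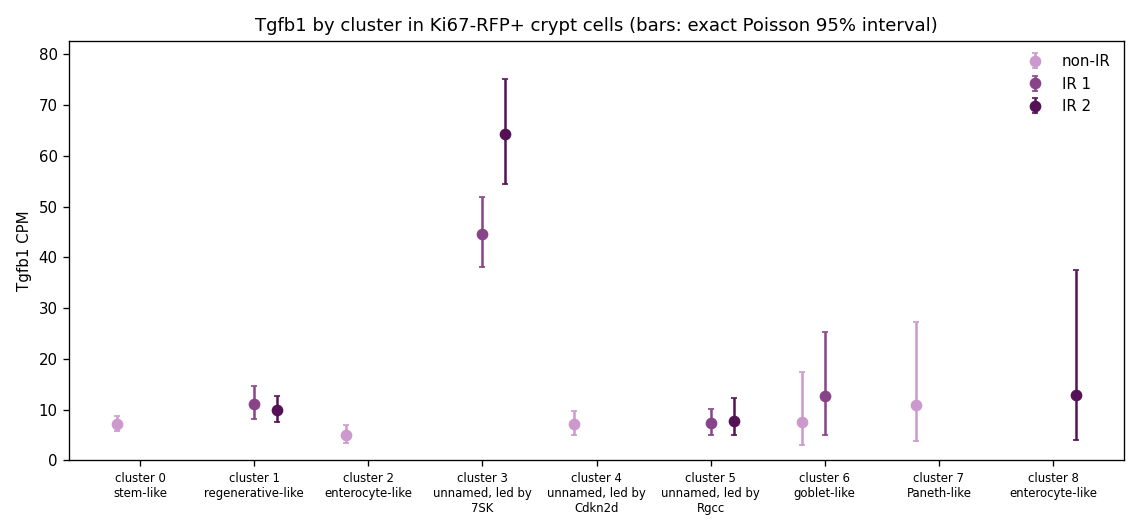
Tgfb1 CPM by cluster and library in Ki67-RFP+ crypt cells (linear y axis, from 0), with exact Poisson 95% intervals. The unnamed cluster with 7SK among its leading genes (labelled as led by 7SK), present in the irradiated libraries, stands at 44.6 and 64.3 CPM, above all others.

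Most Tgfb1 of the irradiated crypt cells came from 1 cluster. Its leading genes were mostly noncoding, with the small nuclear RNA 7SK after Gm25829, and it is called the 7SK cluster here. It held 225 and 169 cells of the 2 irradiated libraries and none of the non-irradiated one, and stayed unnamed. Its Tgfb1 level was 44.6 CPM (38.1 to 51.9) and 64.3 CPM (54.6 to 75.2), and it gave 169 of 263 and 155 of 248 Tgfb1 UMIs. Elsewhere Tgfb1 read 11.0 and 9.82 CPM in regenerative-like cells and 7.13 CPM in stem-like cells. Without that cluster the irradiated libraries had 9.49 and 9.34 CPM, 1.44 and 1.42 times the non-irradiated level. This exclusion was chosen after the data were seen. In the cluster 65.1 and 65.8% of the Tgfb1 UMIs were fractional, which means that the counting shared them with other genes, and its median depth was 0.715 times that of the cells of its libraries. Over whole libraries the fractional share was 26.3% in the non-irradiated and 52.1 and 52.0% in the irradiated ones. Counting whole UMIs only, the ratios were 2.07 and 2.14. Summed immune markers read 33.4 CPM in the non-irradiated and 82.2 and 70.4 CPM in the irradiated libraries. The immune-like cluster of 8 cells (2, 4 and 2) held no Tgfb1 UMI, with 17, 23 and 13 Ptprc UMIs. So few cells cannot show whether immune cells carried Tgfb1, and this was not tested. Outside that cluster 7.67, 16.7 and 5 Ptprc UMIs remained in the 3 libraries.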

How the data were processed

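The authors deposited bulk RNA values as FPKM, in 3 tables of 6 libraries, and single-cell matrices as estimated counts (expected counts) of UMIs, which are fractional where a UMI was shared between genes. PIPseq chemistry was used for single cells, per the labels' protocols. Per the submitters' processing notes, TopHat2 2.1.0, Cuffnorm and Cuffdiff 2.2.1, STARsolo and STAR 2.7.10a were used, with the builds mm9, GRCm39 and mm39 and no role given for each. Read depth of the FPKM tables is unknown, and 0 of their 18 sample columns were left unmapped. ATAC peak lists were not analysed here, because no annotation of their build was used.

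The 10 genes and the lists of partners and markers were chosen with earlier results of these data known. The named partners were, in each of 7 lists, up to 4 called genes of largest absolute change in any TGFB1 comparison, and the genes named as most like a member were the 3 of highest r. Tests used limma 3.58.1 in R 4.3.3 (trend and robust) on log2(FPKM + 1), after dropping genes whose mean over the fitted libraries was under 1 FPKM. Each condition was fitted on its 6 libraries, and each interaction on 12. The script was checked on simulated data. Single values were tested by exact permutation. Fractional single-cell counts were summed, not rounded, for levels.

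The cell filter asked for 500 or more UMIs, 250 or more genes and no more than 20% mitochondrial UMIs. Doublets were neither called nor removed. Leiden clustering (leidenalg 0.10.2, resolution 0.6) followed scanpy 1.11.5 with 2000 variable genes, 30 components and 15 neighbours. A cluster was named from a marker list at a median fold of at least 2 with at least 3 markers detected, and left unnamed where its 10 leading genes held more markers of another list, or more than 4 pseudogenes or noncoding RNAs. A class is given for a library with at least 20 cells of it. Alternatives changed the pseudocount, level filter, normalization, replicate block, single libraries, cell filter, fractional UMIs, thinning depth and clustering resolution. Leaving out the immune-like cluster and the 7SK cluster was added after the data were seen.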

Additional observations from a re-analysis of the deposited data

Results flagged for a closer look

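The effect of TGFB1 differed between irradiated and non-irradiated D7 organoids for 3 of the 7 tested genes, by the limma interaction term on the log2(FPKM + 1) scale. The difference (irradiated minus non-irradiated) was 1.55 for Tgfb1, 0.42 for Tgfbr2 and 0.14 for Smad1. Between the days, in irradiated organoids, the difference (D11 minus D7) was -3.06 for Tgfb1, -0.19 for Tgfbr2, -0.73 for Smad1 and -0.45 for Smad3, and 0.33 for Tgfbr1 and 0.34 for Smad2. Both terms share the D7 irradiated libraries.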

How the results depend on the processing

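Across all alternatives, 446 values of single genes kept their direction and their side of the threshold, 35 lost and 12 gained a call and 11 changed sign. Of the values that answer a comparison 90 stayed close and 13 moved. Quantile normalization gave 5 calls (in place of 3) in D7 IR, adding Tgfbr1 and Smad2, and 5 (in place of 3) for the irradiation interaction, and median-ratio scaling gave 5 in D7 IR. Without the level filter 8 genes were called at D11. With the replicate block the counts of calls were 5, 3, 4, 2 and 6 (D7 non-IR, D7 IR, D11, irradiation and day), and Smad3 at D11 (limma adjusted p = 0.0529) and the irradiation difference of Smad1 (limma adjusted p = 0.0547) were no longer called. Same-numbered libraries did not deviate together in all tables (r from -0.0856 to 0.213), so the numbers were not taken as pairs. Leaving out 1 library gave 5 to 5, 3 to 4, 4 to 5, 2 to 4 and 4 to 6 calls. Signs changed only for differences near 0. Under quantile normalization these were Smad4 in D7 non-IR (-0.025) and for the day (0.023), and Smad1 in D7 IR (-0.0035). When 1 library was left out, Smad4 ranged from -0.018 to 0.047 in D7 non-IR, -0.033 to 0.094 at D11, -0.0020 to 0.063 for irradiation and -0.078 to 0.048 for the day. Smad1 in D7 IR ranged from -0.019 to 0.025 and Tgfb1 at D11 from -0.19 to 0.00092. In crypt cells the Tgfb1 ratios of 2.91 and 3.05 became 2.07 and 2.14 with whole UMIs only and 1.44 and 1.42 without the 7SK cluster. The ratios of Tgfbr2 cell shares, 6.32 and 8.43, became 3.67 and 5.16 at 1000 UMIs. Both also fell without thinning, the second to 4.60, where the shares were 10.8% against 50.1 and 49.8%. At resolution 1.0 the regenerative-like to enterocyte-like Tgfbr2 ratio was 7.92 at 15 h and 8.57 at 24 h, and 0 h gave no value. The cause was not tested for any of these. The alternatives planned for ATAC peaks were not run.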

Other observations

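Tgfb1 took different places in the 2 RNA assays. In bulk D7 irradiated organoids with TGFB1 it stood at 33.5 FPKM, above Smad1 at 18.9 FPKM. In the single-cell library at 24 h it stood at 2.08 CPM, with Smad1 at 52.0 CPM. The dose (2 against 1 ng/mL), the day (7 against 8), the assay and the unit differ, and the cause was not tested. Fractional entries held 7.78 to 19.8% of the Tgfb1 UMIs in the organoid libraries.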
